A study of Mus musculus with 4 samples.

Results

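The genes described here are 34 genes of cholesterol and fatty acid synthesis, their regulation and sterol transport, chosen by name from the 31829 gene names on a mouse expression array. They comprised 7 genes of the mevalonate steps, 9 genes from squalene to cholesterol, 5 regulators built around the sterol regulatory element-binding proteins (SREBPs), 5 genes of sterol transport and efflux, and 8 genes of fatty acid synthesis and desaturation. The study compared mouse embryonic fibroblasts (MEFs), connective tissue cells cultured from embryos, that were p53+/+ (wild-type, WT) or p53-/-. Each genotype was measured without an agent and with doxorubicin, a DNA-damaging drug that traps topoisomerase on DNA, in order to find genes that respond to DNA damage through the tumor suppressor p53. Total RNA from each of the 4 conditions was hybridized to 1 single-color Agilent array, and all 4 arrays lay on 1 slide. The dose and time of doxorubicin for the arrays, the number of embryos or cultures behind each RNA and the allele of the p53-/- MEFs are not given in the sources used here. With 1 array per condition there was no replicate error and no test, and every ratio below compares the arrays named and not the conditions in general.

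A level below is a relative signal, the processed signal of a gene's brightest probe divided by the 75th percentile signal of all non-control probes on the same array. Ratios of these levels are given as folds or on the log2 scale, and a gene is said to have risen or fallen where the ratio was at least 2-fold. The only error that could be measured was that between repeat spots of a probe within an array, an SD of 0.115 (log2) for a ratio of 2 arrays and 0.163 for the difference of 2 such ratios, from 253 probes spotted 10 times. This spread leaves out culture, RNA and array differences. Of the 34 genes, 34 were well above background on all 4 arrays, so no gene was lost to the filter on dim probes and no bound was needed.

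Cells build cholesterol from acetyl-CoA through mevalonate, isoprenoids and squalene, and build fatty acids from the same acetyl-CoA through malonyl-CoA. Transcription of both pathways is driven by the SREBPs (Srebf1 and Srebf2), which Scap escorts out of the endoplasmic reticulum when sterols are scarce and which Insig proteins hold back when sterols are plentiful. When sterols accumulate, liver X receptors instead switch on the exporters Abca1 and Abcg1. Fibroblasts run the complete pathway for their own membranes.

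All 8 fibroblast markers, among them the collagen genes Col1a1 and Col1a2 and the intermediate filament gene Vim, were well above background on all 4 arrays, with a summed relative signal between 553 and 816. Single markers were less steady than this sum. With doxorubicin Pdgfrb fell in both genotypes (log2 ratio -2.44 in WT and -1.73 in p53-/- MEFs), and the other 7 stayed within 2-fold. Among these, S100a4 had ratios of -0.90 and 0.98. Its log2 ratio of p53-/- over WT without doxorubicin was -2.01. A list of 4 p53 response genes (Cdkn1a, Mdm2, Ccng1 and Bax) summed to 63.2 without and 212 with doxorubicin in WT MEFs. In p53-/- MEFs the list summed to 15.2 without and 18.5 with the drug. These sums hide Cdkn1a, which rose in both genotypes. Its relative signal went from 13.8 to 58.3 in WT MEFs and from 0.52 to 2.44 in p53-/- MEFs. Mdm2, Ccng1 and Bax rose in WT MEFs and stayed within 2-fold in p53-/- MEFs. Trp53 itself had relative signals of 0.59, 1.89, 0.24 and 0.22 in the same order, and whether its probe lies in the deleted part of the gene is not given in the sources used here. The 8 proliferation genes, among them Mki67 and Top2a, summed to 37.4, 10.8, 72.7 and 112.8 in that order. Their log2 ratios with doxorubicin lay between -4.47 and -0.36 in WT MEFs and between 0.30 and 1.05 in p53-/- MEFs. The part of proliferation in the results below was not tested. Summed relative signals lay between 14.9 and 23.1 for 8 leukocyte markers, between 5.28 and 17.7 for 5 epithelial markers (highest in treated p53-/- MEFs, mostly Krt18), between 2.33 and 4.20 for 4 endothelial markers and between 4.14 and 8.16 for 4 muscle markers. Of these lists, 6 to 8 leukocyte, 2 to 4 epithelial, 2 or 3 endothelial and 2 or 3 muscle markers were well above background on an array. Ptprc, Itgam, Csf1r, Emr1, Laptm5, Cd14, Krt8, Krt18, Pecam1, Kdr, Des and Acta1 were so on all 4 arrays, and Epcam, Cdh5 and Myod1 on none. Cd14 rose in WT MEFs by a log2 ratio of 3.74. The part of these markers in the results was not tested. In such bulk RNA, fewer cells of a type and less RNA per cell cannot be told apart.

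Doxorubicin-treated MEFs of both genotypes had less RNA of most synthesis genes, and 19 of the 24 genes of the synthesis steps fell in both. In WT MEFs 23 of the 34 genes fell and 2 rose, where 10.4% of all 17546 genes measured fell and 11.0% rose. In p53-/- MEFs 22 of the 34 genes fell and 0 rose, where 6.89% of 16981 genes fell and 9.24% rose. The median log2 ratio of the 34 genes was -1.82 in WT MEFs and -1.50 in p53-/- MEFs, beside medians of 0.01 and 0.00 over all genes. In both genotypes 21 genes (61.8%) fell, compared with 550 of the 16538 genes measured on all 4 arrays (3.33%). Across the 34 genes the log2 ratios of the genotypes had a Pearson correlation of 0.81 and a Spearman correlation of 0.71, given as a description since the genes share the same 4 arrays. The 2 genes that fell in WT MEFs and not in p53-/- MEFs were Stard4 and Acly, and Acat2 fell in p53-/- MEFs and not in WT MEFs. The WT log2 ratio of Acly ranged from -1.48 to -0.92 over the other processing settings. A dimmer probe of Acly gave -0.63 in WT and -0.51 in p53-/- MEFs. Another 8 genes stayed within 2-fold in both genotypes, namely Tm7sf2, Hsd17b7, Ebp, Srebf1, Scap, Insig2, Npc1 and Npc2.

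**Figure D1:**
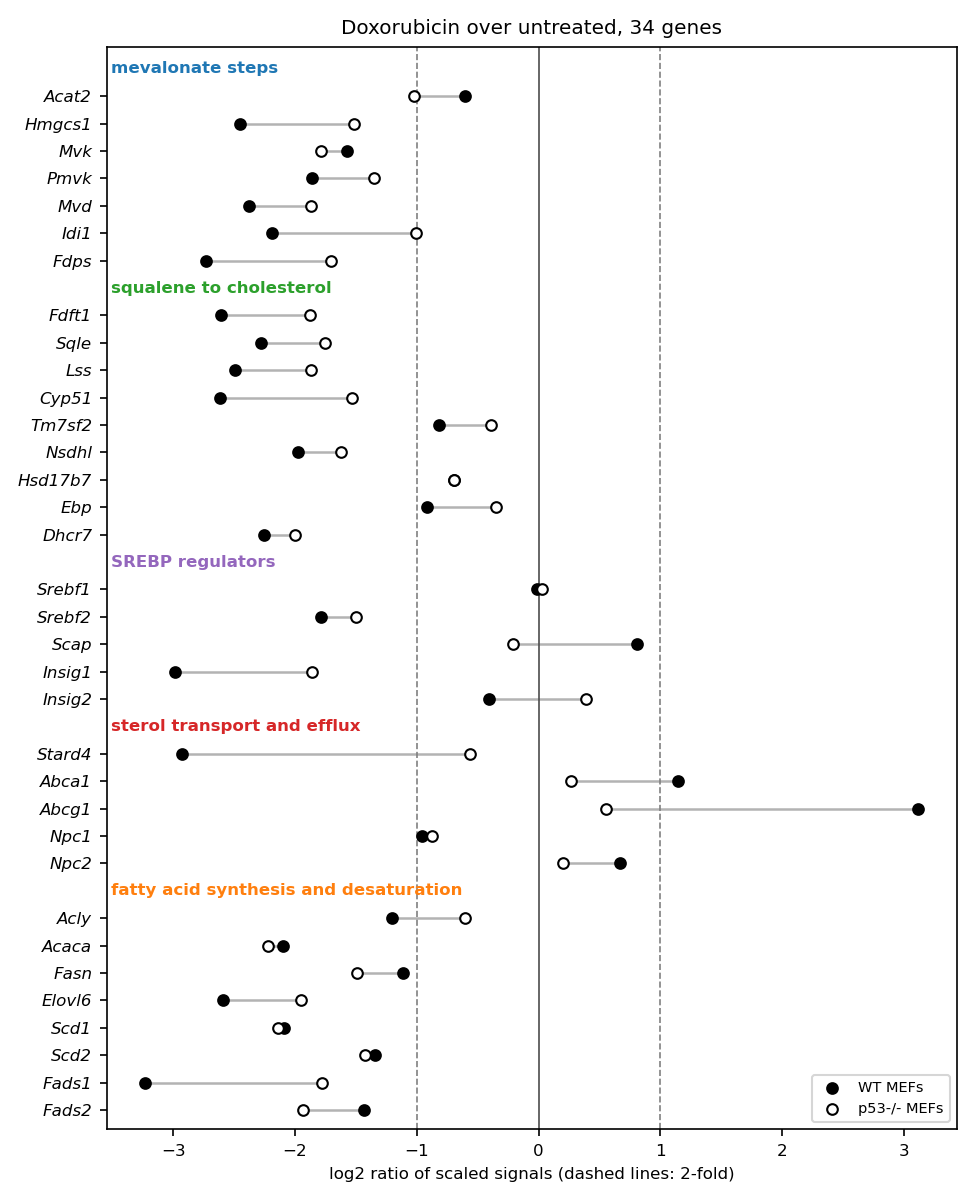
Log2 ratio of doxorubicin-treated over untreated MEFs for each of the 34 genes, grouped by role, with WT MEFs as filled and p53-/- MEFs as open circles (1 array per condition, no error bars). Of the 24 synthesis genes, 19 sit left of the dashed line at -1 in both genotypes, while Abcg1 reached 3.12 in WT MEFs against 0.56 in p53-/- MEFs.

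**Figure D2:**
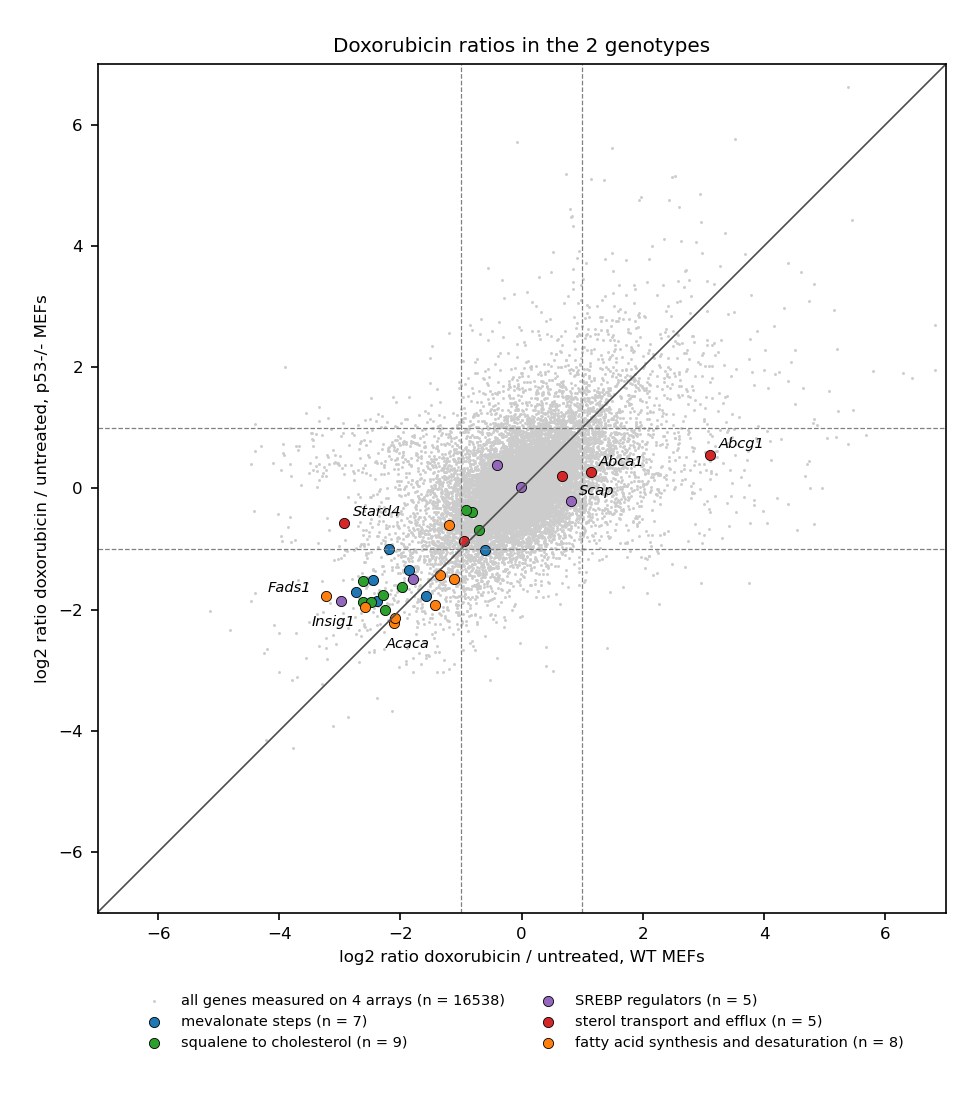
Log2 ratio with doxorubicin in WT MEFs (x axis) against p53-/- MEFs (y axis) for the 16538 genes measured on all 4 arrays (grey) and the 34 genes (colored by role), with the diagonal of equal ratios and dashed lines at 2-fold. The synthesis genes form a cluster at the lower left, mostly above the diagonal, while Abca1 and Abcg1 lie at the right.

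The mevalonate steps turn acetyl-CoA into farnesyl diphosphate. In WT MEFs 6 of these 7 genes fell (median log2 ratio -2.19), and in p53-/- MEFs 7 of 7 fell (median -1.52). Hmgcs1, the cytosolic HMG-CoA synthase, had relative signals of 30.4 without and 5.57 with the drug in WT MEFs, and of 30.1 and 10.5 in p53-/- MEFs. The untreated genotypes were thus level, and the treated WT array was the lowest of the 4, with a fall of 5.46-fold in WT against 2.86-fold in p53-/- MEFs. Fdps, the farnesyl diphosphate synthase that ends this stretch, went from 28.9 to 4.35 in WT MEFs (6.64-fold lower) and from 33.5 to 10.3 in p53-/- MEFs (3.26-fold lower). Idi1, the isomerase that makes dimethylallyl diphosphate, went from 7.88 to 1.73 in WT MEFs (4.55-fold lower) and from 7.48 to 3.72 in p53-/- MEFs (2.01-fold lower, at the threshold). For both enzymes the treated WT array was again the lowest. Mvd, the decarboxylase of mevalonate diphosphate, went from 2.18 to 0.42 in WT MEFs and from 2.71 to 0.74 in p53-/- MEFs. The kinases Mvk and Pmvk act in turn in this stretch. By the brightest probe the fall of Pmvk was larger in WT (3.62-fold against 2.54-fold) and that of Mvk slightly larger in p53-/- MEFs (3.44-fold against 2.97-fold). The log2 difference of Mvk (0.21) was within 2 repeat-spot SDs (0.33), and so was that of Pmvk by its dimmer probe (-0.28). The dimmer probe of Mvk gave 0.54, beyond that limit. Acat2, which condenses acetyl-CoA to acetoacetyl-CoA, was the weak member, with relative signals of 0.20 and 0.13 in untreated and treated WT MEFs and 0.42 and 0.21 in p53-/- MEFs. Its log2 ratio was -0.60 in WT MEFs and -1.02 in p53-/- MEFs, and the latter ranged from -1.32 to -0.88 over the other processing settings.

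From squalene to cholesterol, 6 of 9 genes fell in WT MEFs and 6 of 9 in p53-/- MEFs, with medians of -2.25 and -1.62. Cyp51, the lanosterol demethylase, had relative signals of 1.63 and 0.27 in untreated and treated WT MEFs and of 1.80 and 0.62 in p53-/- MEFs. It was thus 6.13-fold lower with doxorubicin in WT MEFs and 2.89-fold lower in p53-/- MEFs. Fdft1, the squalene synthase that commits farnesyl diphosphate to sterols, went from 3.30 to 0.54 in WT MEFs (6.11-fold lower) and from 4.31 to 1.17 in p53-/- MEFs (3.67-fold lower). Sqle, the squalene epoxidase, went from 15.9 to 3.28 in WT MEFs (4.86-fold lower) and from 14.9 to 4.41 in p53-/- MEFs (3.38-fold lower). Both enzymes were lowest on the treated WT array. Lss, the lanosterol synthase that closes the sterol rings, was 5.61-fold lower in WT and 3.66-fold lower in p53-/- MEFs. Nsdhl, a sterol dehydrogenase that removes methyl groups, was 3.94-fold and 3.08-fold lower. Dhcr7, a reductase of the last steps, fell almost alike, 4.77-fold in WT and 4.01-fold in p53-/- MEFs. The other 3 genes, the sterol reductase Tm7sf2, the ketosteroid reductase Hsd17b7 and the sterol isomerase Ebp, had log2 ratios between -0.91 and -0.70 in WT MEFs and between -0.69 and -0.35 in p53-/- MEFs. Hsd17b7 was level between genotypes, at -0.70 and -0.69.

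**Figure D3:**
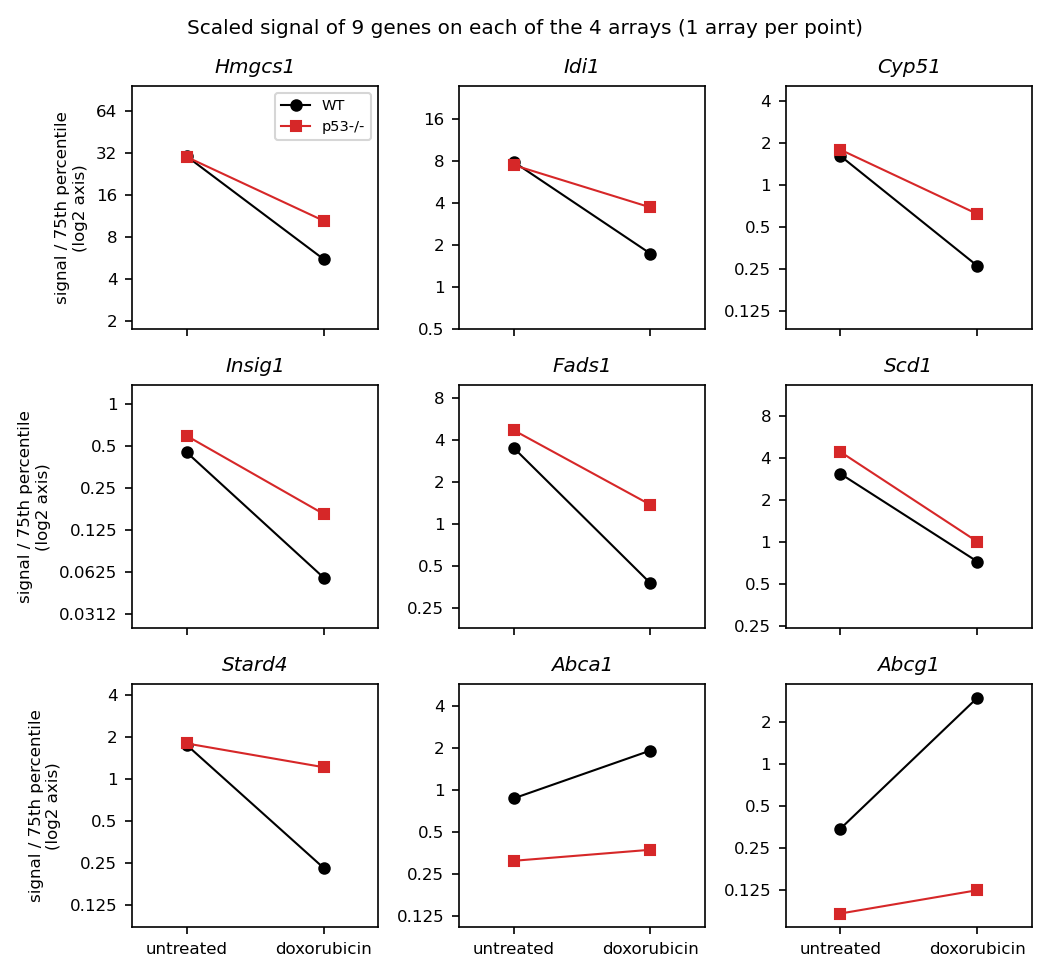
Relative signal (multiples of the array's 75th percentile, log2 axis) of 9 genes on the 4 arrays, with WT MEFs as black circles and p53-/- MEFs as red squares, 1 array per point. Hmgcs1, Idi1, Cyp51 and Stard4 start at near-equal levels in the untreated genotypes and are lowest on the treated WT array, while Abca1 and Abcg1 are higher in WT MEFs on both pairs of arrays.

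The regulators did not move as a group. Insig1, which holds the Scap and SREBP complex in the endoplasmic reticulum and is itself an SREBP target, had relative signals of 0.45 and 0.06 in untreated and treated WT MEFs and of 0.60 and 0.16 in p53-/- MEFs. Its fall was 7.90-fold in WT MEFs and 3.63-fold in p53-/- MEFs. In treated WT MEFs its signal was 104, close to the brightest negative control of that array (77.5), and its log2 ratio there ranged from -3.26 to -2.29 over the other processing settings. Srebf2, the SREBP that mainly serves cholesterol synthesis, went from 1.58 to 0.46 in WT MEFs (3.45-fold lower) and from 1.65 to 0.58 in p53-/- MEFs (2.83-fold lower). A dimmer probe of Srebf2 gave a log2 ratio of 0.21 for WT and of -0.80 for p53-/- MEFs, where the brighter probe gave -1.79 and -1.50. The probes of this gene thus disagreed in direction in WT MEFs. Srebf1, the SREBP more closely tied to fatty acid synthesis, had relative signals between 0.19 and 0.26 on all 4 arrays and log2 ratios of -0.02 and 0.02. Scap, the escort protein, had relative signals of 9.17 and 16.1 in untreated and treated WT MEFs and of 6.12 and 5.27 in p53-/- MEFs. The treated WT array was the highest of the 4, and the log2 ratio was 0.81 for WT and -0.21 for p53-/- MEFs. Insig2, the second retention protein, had a log2 ratio of -0.41 for WT and of 0.39 for p53-/- MEFs.

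Promoter sequence was available in the RefSeq-derived table (build GRCm38.p6) for 25 of the 34 genes and not for Fdps, Fdft1, Sqle, Stard4, Abcg1, Npc1, Scd1, Scd2 and Fads1. SREBPs bind a sterol regulatory element and act together with the factors NF-Y, at CCAAT boxes, and Sp1, at GC boxes. The 250 bases before each listed start were searched on both strands for TCACNCCAC (a sterol element), CCAAT and GGGCGG, motifs that can overlap but did not in the sequences shown. CCAAT was found for 18 of the 25 genes (72.0%), against 37.5% of all 27025 genes in the table and 40.1% of those measured on all 4 arrays. GGGCGG was found for 21 of the 25 genes (84.0%), against 35.4% of all genes and 63.4% of the measured ones. The exact sterol element was found for 1 of the 25 genes, Hmgcs1 (4.0%, against 1.22% of all genes). With 1 mismatch allowed, 10 of the 25 genes had it (40.0%, against 23.0% of all genes). Among the 15 matched genes that fell in both genotypes, CCAAT was found for 12 (80.0%) and GGGCGG for 11 (73.3%). The shares of the measured genes were 40.1% and 63.4%. The exact sterol element was found for 1 of these 15 genes (6.67%, against 1.26% of the measured genes). With 1 mismatch allowed, 6 of the 15 had it (40.0%, against 25.7% of the measured genes). A match is a description of the letters and no site of binding was measured.

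**Figure D4:**
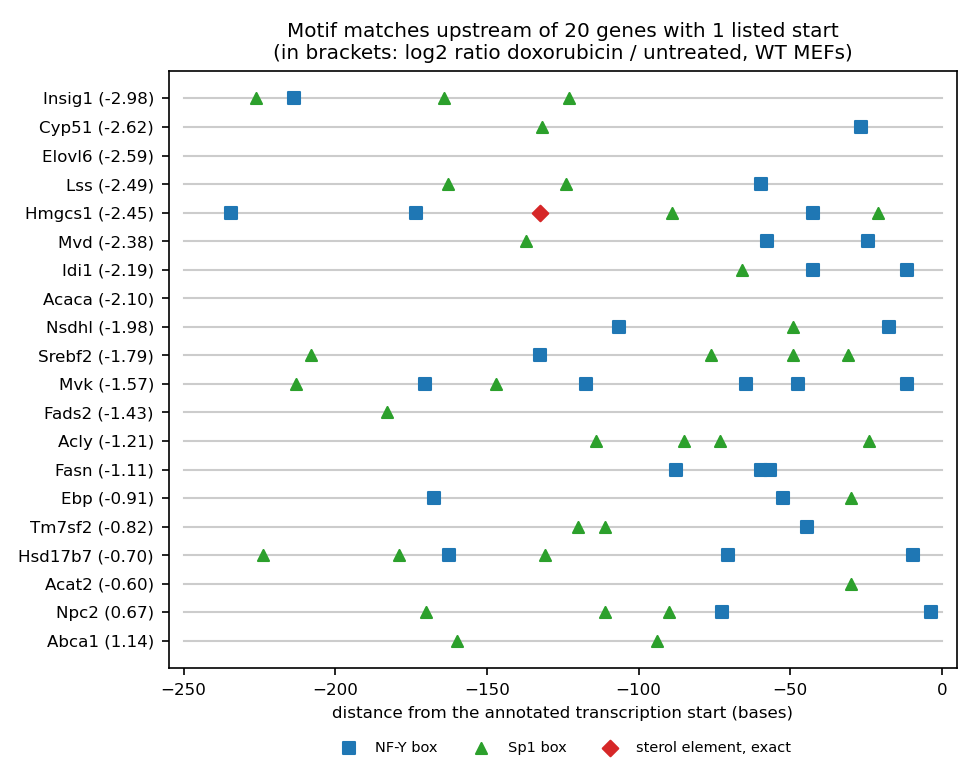
Positions of exact matches to the CCAAT letters (NF-Y box, squares), the GGGCGG letters (Sp1 box, triangles) and the sterol element (diamond) in the 250 bases before the start of the 20 genes with 1 listed start, ordered by their log2 ratio with doxorubicin in WT MEFs (in brackets). The sterol element is in Hmgcs1, and Elovl6 and Acaca have no match to any of the 3.

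The sequences below belong to the 5 genes with the lowest log2 ratio in WT MEFs among those with 1 listed start, and to Abca1, an exporter that rose there. Abcg1, which rose more, had no sequence available. Each is the 250 bases before the start, 5′ to 3′ on the gene's strand, with matches to the 3 motifs on either strand in capitals. They lie at chr5:28071162-28071411 (plus strand) for Insig1, chr5:4104698-4104947 (minus strand) for Cyp51, chr3:129532136-129532385 (plus strand) for Elovl6, chr10:76531355-76531604 (plus strand) for Lss, chr13:119690101-119690350 (plus strand) for Hmgcs1 and chr4:53159896-53160145 (minus strand) for Abca1. In Hmgcs1 the sterol element begins 137 bases before the start, with CCAAT boxes on the opposite strand that begin 237, 176 and 45 bases before it. Cyp51 has a CCAAT box 29 bases before the start, and Lss and Insig1 have theirs, on the opposite strand, at 62 and 216 bases. Abca1 has 2 GC boxes and no CCAAT box, and Elovl6, which fell 6.02-fold in WT MEFs, has no match in this window.
Insig1: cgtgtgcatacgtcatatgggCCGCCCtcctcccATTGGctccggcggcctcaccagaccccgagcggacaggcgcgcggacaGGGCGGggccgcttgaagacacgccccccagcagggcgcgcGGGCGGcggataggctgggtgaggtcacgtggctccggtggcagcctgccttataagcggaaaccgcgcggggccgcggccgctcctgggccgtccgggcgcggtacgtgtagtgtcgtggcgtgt
Cyp51: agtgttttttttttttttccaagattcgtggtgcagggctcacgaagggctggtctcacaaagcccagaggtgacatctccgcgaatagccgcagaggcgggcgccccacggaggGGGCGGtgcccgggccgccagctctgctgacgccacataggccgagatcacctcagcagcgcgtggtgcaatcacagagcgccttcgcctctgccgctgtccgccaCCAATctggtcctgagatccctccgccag
Elovl6: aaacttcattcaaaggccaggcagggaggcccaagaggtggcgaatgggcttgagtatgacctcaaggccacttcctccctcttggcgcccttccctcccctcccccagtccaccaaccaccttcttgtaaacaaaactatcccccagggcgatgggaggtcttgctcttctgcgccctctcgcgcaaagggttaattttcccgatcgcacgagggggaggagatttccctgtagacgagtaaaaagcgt
Lss: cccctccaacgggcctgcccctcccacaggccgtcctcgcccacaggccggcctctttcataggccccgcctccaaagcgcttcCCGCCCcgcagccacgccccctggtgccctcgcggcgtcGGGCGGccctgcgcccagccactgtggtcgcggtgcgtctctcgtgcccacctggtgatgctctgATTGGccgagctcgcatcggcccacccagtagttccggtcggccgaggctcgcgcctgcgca
Hmgcs1: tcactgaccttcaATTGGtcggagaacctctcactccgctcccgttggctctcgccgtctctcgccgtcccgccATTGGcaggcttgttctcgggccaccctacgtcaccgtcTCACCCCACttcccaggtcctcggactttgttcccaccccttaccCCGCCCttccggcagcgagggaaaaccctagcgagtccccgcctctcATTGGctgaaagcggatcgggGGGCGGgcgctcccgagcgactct
Abca1: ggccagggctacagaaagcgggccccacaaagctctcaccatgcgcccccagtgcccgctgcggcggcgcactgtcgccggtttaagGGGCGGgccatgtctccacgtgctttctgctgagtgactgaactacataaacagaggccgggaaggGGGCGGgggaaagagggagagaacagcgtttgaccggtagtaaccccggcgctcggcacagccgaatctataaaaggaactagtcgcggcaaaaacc

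Transport and efflux genes went both ways. Abcg1, an exporter that passes cholesterol to high-density lipoprotein, had relative signals of 0.34 and 2.98 in untreated and treated WT MEFs and of 0.09 and 0.12 in p53-/- MEFs. It rose 8.68-fold in WT MEFs, where 160 of 17546 genes had a higher ratio, and its ratio in p53-/- MEFs was 1.47-fold. In untreated p53-/- MEFs its signal of 159.5 was below the brightest negative control of that array (250.1), so the ratios that rest on this array are uncertain. Abca1, which loads cholesterol onto apolipoprotein A-I, had relative signals of 0.87 and 1.92 in WT MEFs and of 0.31 and 0.37 in p53-/- MEFs. It rose 2.20-fold in WT MEFs, and its log2 ratio there was 0.87 when arrays were scaled to their median, below the threshold. The WT arrays were above both p53-/- arrays for both exporters. Stard4, a cytosolic carrier of sterol between membranes and an SREBP target, went the other way, from 1.74 to 0.23 in WT MEFs (7.60-fold lower) and from 1.79 to 1.21 in p53-/- MEFs (1.48-fold lower). The untreated arrays were level and the treated WT array stood apart from the other 3. A second, dimmer probe of Stard4 gave a log2 ratio of -0.62 in p53-/- MEFs and was not well above background in treated WT MEFs. The lysosomal cholesterol exporters had log2 ratios of -0.96 (WT) and -0.87 (p53-/-) for Npc1, and of 0.67 and 0.20 for Npc2.

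Most fatty acid genes fell in both genotypes. In WT MEFs 8 of 8 fell (median log2 ratio -1.76) and in p53-/- MEFs 7 of 8 (median -1.85), read by the brightest probes. Dimmer probes gave WT log2 ratios short of 2-fold for Acly (-0.63) and Fads2 (-0.91). For Acaca 1 dimmer probe gave -0.97 in WT MEFs and another gave -2.12. In p53-/- MEFs the dimmer probe of Fads2 gave -1.11, and those of Acaca gave -1.12 and -2.22. The genotypes differed by less than 2 repeat-spot SDs for 3 of the 8 genes, Acaca, Scd1 and Scd2. The WT ratio was lower beyond that limit for 3 genes (Fads1, Elovl6 and Acly) and higher for 2 (Fads2 and Fasn). For Acly and Fads2 this depended on the probe. The log2 difference between genotypes was -0.61 for Acly and 0.50 for Fads2 by the brightest probe. Dimmer probes gave -0.13 and 0.20, within the limit. Acaca, the acetyl-CoA carboxylase that makes malonyl-CoA, went from 8.90 to 2.08 in WT MEFs (4.29-fold lower) and from 10.2 to 2.19 in p53-/- MEFs (4.66-fold lower). Scd1, a stearoyl-CoA desaturase, went from 3.09 to 0.73 in WT MEFs (4.26-fold lower) and from 4.44 to 1.01 in p53-/- MEFs (4.40-fold lower). Scd2, a desaturase of the same family, went from 66.8 to 26.3 and from 66.1 to 24.7. For these 3 genes the treated arrays of both genotypes lay below both untreated arrays, and the genotypes differed by 0.12 (log2) or less, within the repeat-spot SD of such a difference. Fasn, the fatty acid synthase, was 2.16-fold lower in WT and 2.81-fold lower in p53-/- MEFs. Fads2 and Fads1 encode desaturases that act in turn on polyunsaturated fatty acids. Fads2 went from 1.13 to 0.42 in WT MEFs (2.70-fold lower) and from 1.57 to 0.41 in p53-/- MEFs (3.82-fold lower). Fads1 went from 3.50 to 0.37 in WT MEFs (9.36-fold lower) and from 4.68 to 1.36 in p53-/- MEFs (3.43-fold lower). Fads1 had the largest fall of the 34 genes in WT MEFs, where 74 of 17546 genes had a lower ratio. Elovl6, which elongates palmitate, was 6.02-fold lower in WT and 3.87-fold lower in p53-/- MEFs. Acly, which makes cytosolic acetyl-CoA from citrate, fell 2.31-fold in WT MEFs, and its ratio in p53-/- MEFs was 1.52-fold lower. Some adipocyte markers also changed with doxorubicin. In p53-/- MEFs, where 7 of the 8 fatty acid genes fell, the 4 adipocyte markers measured had log2 ratios above 0. The 8 markers summed to 3.15 and 2.54 in untreated and treated WT MEFs and to 2.84 and 7.77 in p53-/- MEFs, with Fabp4 and Lpl higher in treated p53-/- MEFs by log2 ratios of 1.98 and 1.52. Cebpa went the other way, with a log2 ratio of 1.54 in WT and 0.24 in p53-/- MEFs. Adipoq was well above background in treated p53-/- MEFs alone, and the droplet and hormone markers Plin1, Cidec and Lep on no array. The part of these markers in the result was not tested.

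The difference between the genotypes was taken as the log2 ratio in WT minus that in p53-/- MEFs. It was -1 or lower for 6 of the 34 genes, where 9.86% of 16538 genes passed, and 1 or higher for 2 genes, where 8.38% passed. The former share (6 of 34) was above the background and the latter below it. The 6 genes that fell further in WT MEFs were Stard4 (-2.36), Fads1 (-1.45), Idi1 (-1.18), Insig1 (-1.12), Cyp51 (-1.09) and Fdps (-1.03). Insig1 ranged from -1.20 to -0.61 over the other processing settings, the latter with another background correction, and Fdps reached -0.97. The 2 genes on the other side were Abcg1 (2.56) and Scap (1.02, between 0.99 and 1.04 over the other settings). Of the 16 sterol synthesis genes, 14 had a difference below 0 (median -0.52), and for 12 it was below -0.33, which is 2 repeat-spot SDs. Dimmer probes put Pmvk (-0.28, against -0.51) and Tm7sf2 (-0.19, against -0.42) within that limit. The dimmer probe of Mvk gave 0.54, against 0.21. Of the 8 fatty acid genes, 3 had a difference below 0, and their median of 0.06 averages genes that lay on either side. Over all genes the median was 0.01, and 8116 of 16538 were below 0. With 1 array per condition none of these differences could be tested.

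Without doxorubicin the genotypes were close. Here 1 of the 34 genes was at least 2-fold higher in p53-/- MEFs, where 2.15% of 17318 genes passed, and 2 were at least 2-fold lower, where 2.62% passed. The median log2 ratio of p53-/- over WT was 0.12. The higher gene was Acat2 (2.12-fold, log2 ratio between 0.95 and 1.08 over the other settings), and the lower genes were Abca1 (2.80-fold) and Abcg1 (4.06-fold, with the caution on its signal given above). Dhcr7 was 1.87-fold and Fasn 1.70-fold higher in p53-/- MEFs, and the largest ratio among the other mevalonate genes was that of Mvd (1.24-fold). With doxorubicin 10 of the 34 genes were at least 2-fold higher in p53-/- than in WT MEFs, where 11.9% of 17922 genes passed, and 3 were at least 2-fold lower, where 10.3% passed. The median was 0.47. The 10 genes were Stard4 (5.27-fold), Fads1 (3.65-fold), Insig1 (2.86-fold), Fdps (2.37-fold), Cyp51 (2.35-fold), Elovl6 (2.24-fold), Dhcr7 (2.23-fold), Fdft1 (2.17-fold), Idi1 (2.15-fold) and Lss (2.05-fold). The 3 lower genes were Abcg1 (23.9-fold), Abca1 (5.15-fold) and Scap (3.05-fold). These values use the same treated arrays as the doxorubicin ratios and are another reading of them.

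**Figure D5:**
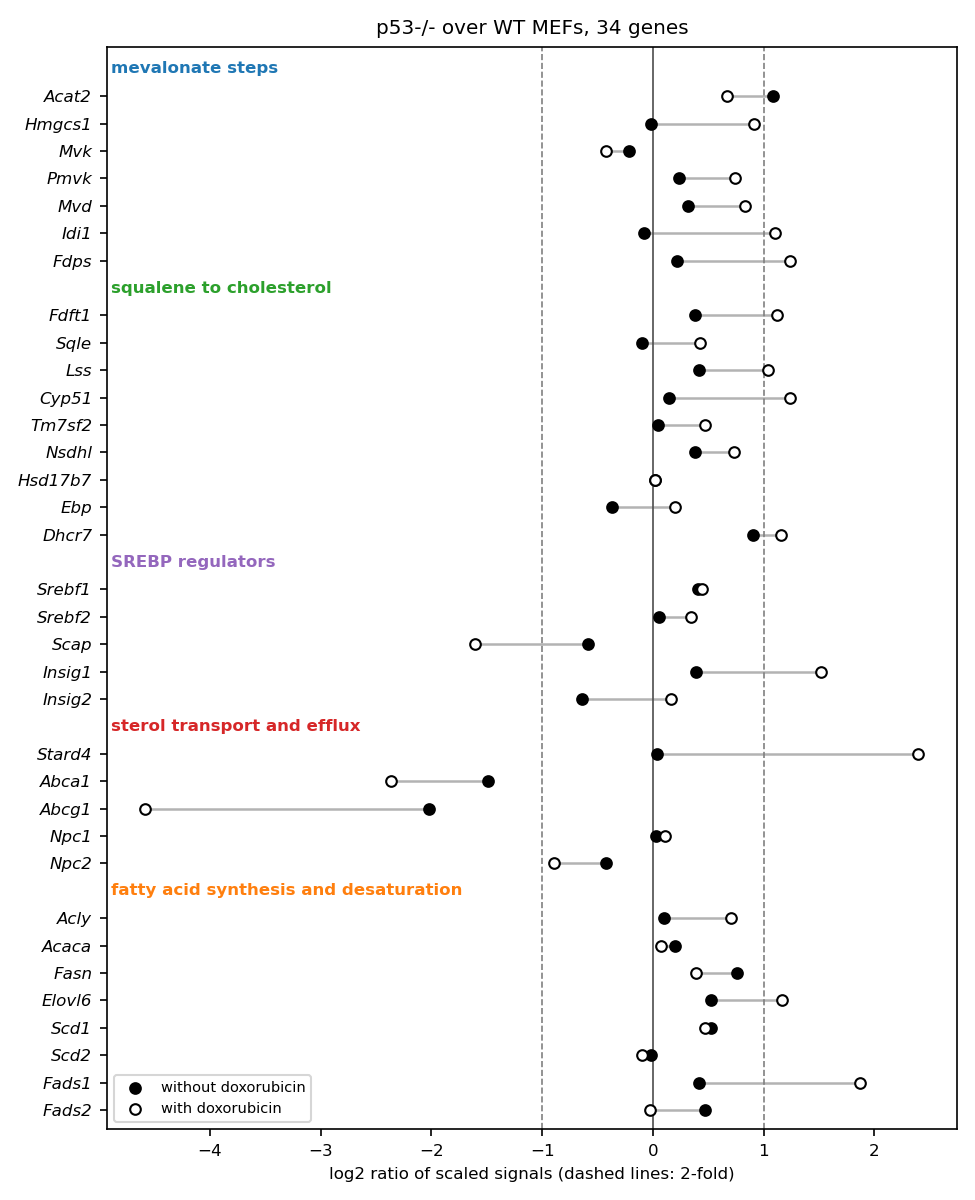
Log2 ratio between genotypes (p53-/- over WT) for each of the 34 genes, without doxorubicin (filled circles) and with it (open circles), grouped by role, 1 array per condition. Filled circles lie between the dashed 2-fold lines except for Acat2, Abca1 and Abcg1, and the open circles lie further right for 14 of the 16 sterol synthesis genes.

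A wider list of 41 genes around the pathway, among them acyl-CoA synthetases, elongases, sterol sensors and oxysterol enzymes, was counted in the same way. In WT MEFs 8 of the 39 genes measured fell and 3 rose (median log2 ratio -0.22), and in p53-/- MEFs 4 of 38 fell and 3 rose (median -0.21). The shares that fell, 8 of 39 and 4 of 38, were thus smaller than among the 34 genes. Over all genes measured, 10.4% fell and 11.0% rose in WT MEFs, and 6.89% fell and 9.24% rose in p53-/- MEFs. The highest differences of WT minus p53-/- on this list were those of Lpin1 (2.40), a phosphatidate phosphatase of triglyceride synthesis, Lpcat3 (1.32), a phospholipid acyltransferase, and Stard5 (1.31), a sterol-binding protein. Lpin1 had relative signals of 0.29 and 1.05 in untreated and treated WT MEFs and of 0.18 and 0.12 in p53-/- MEFs. The lowest were those of Nr1h3 (-2.32), which encodes a liver X receptor, Mylip (-1.46), a ubiquitin ligase that degrades lipoprotein receptors, and Ch25h (-1.41), which makes an oxysterol. Nr1h3 had relative signals of 0.09 and 0.11 in untreated and treated WT MEFs and of 0.07 and 0.42 in p53-/- MEFs. The treated p53-/- array thus stood apart. In untreated p53-/- MEFs, however, Nr1h3 had a signal of only 129.3, while negative controls there reached 250.14. Stard5, with a signal of 250.05, also fell just short of this value. Ratios and differences of both genes that use untreated p53-/- MEFs are therefore uncertain. Lpcat3, Abca1, Abcg1 and Mylip are among the known targets of liver X receptors, and not a full list of them. With doxorubicin the log2 ratio was 0.67 in WT and -0.64 in p53-/- MEFs for Lpcat3, and -0.97 and 0.49 for Mylip. It was 1.14 and 0.26 for Abca1, 3.12 and 0.56 for Abcg1, and 0.28 and 2.60 for Nr1h3 itself. The part of Nr1h3 in these values was not tested.

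Each gene above was read by its brightest probe. A further 14 probes covered 12 of the 34 genes, and 10 of them, for 9 genes, were well above background on all arrays. They had the same sign as the brightest probe for 9 of 10 in WT MEFs and 10 of 10 in p53-/- MEFs, the exception being Srebf2. The median distance between probes of a gene was 0.32 in WT and 0.08 in p53-/- MEFs (log2), and the largest was 1.99 and 1.10. On the mm9 build of the array files, the probe of Fdps lies at chr3:88897549-88897608, that of Cyp51 at chr5:4081471-4081530, that of Insig1 at chr5:28404246-28404305, that of Fads1 at chr19:10270530-10270589, that of Abca1 at chr4:53043944-53044003 and that of Abcg1 at chr17:31252580-31252639. The probe of Hmgcs1 is placed on an unlocalized piece of chromosome 13. Which exon each probe lies in was not analysed here.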

How the data were processed

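RNA from WT and p53-/- MEFs without and with doxorubicin (1 array each, 1 slide, 200 ng of total RNA as input for labeling) was read by the authors with the Feature Extraction program of Agilent (10.7.3.1). In the deposited files the intensities are processed signals, background-subtracted and detrended within each array and not normalized between arrays, beside mean and local background intensities. The deposited flags, another column type coded 0 or 1, mark spots well above background, saturated (0 spots) or outlying. The deposited value table equaled the processed signal at all 44397 spots of each array within a relative tolerance of 0.0001, so its scale and direction are known.

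Outlier spots (145 to 168 per array) were dropped, the log2 values of a probe's spots were averaged, and the 75th percentile of each array (signals of 1819 to 2421) was subtracted. A gene is its probe with the highest mean, counted as measured where both or all arrays compared flagged it well above background (56.9% to 62.9% of probes). Dim calls are uncertain on the untreated p53-/- array, whose brightest negative control was 250.1 against 77.5 to 120 on the others. The number of arrays limits the precision. The threshold was 2-fold, and all 34 genes may be named, with the 3 highest and 3 lowest differences of the wider list.

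Array-median scaling, quantile normalization, normexp (limma 3.58.1, offset 50), 3 other filters, averaging a gene's probes, the value table and folds of 1.5 and 3 were the alternatives. Python 3.11.15 and R 4.3.3 were used, and the steps were tested on simulated data. The genes and lists were chosen with earlier results of these data known. The fold changes of the authors' Subio software were not used.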

Additional observations from a re-analysis of the deposited data

Results flagged for a closer look

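Scap and Insig2 moved in opposite directions in the genotypes, each by more than the repeat-spot SD of a ratio (0.115 on the log2 scale), though no ratio reached 2-fold. For Scap the log2 ratio with doxorubicin was 0.81 in WT and -0.21 in p53-/- MEFs, a difference of 1.02. The Scap ratio in p53-/- MEFs lay within 2 such SDs (0.23), the limit used above. For Insig2 it was -0.41 in WT and 0.39 in p53-/- MEFs, a difference of -0.80, and the dimmer probe of this gene gave -0.29 and 0.66. With arrays scaled to their median the Insig2 ratio in p53-/- MEFs was 0.09, within the SD of 0.115. With 1 array per condition these differences were not tested. Outlying samples could not be looked for, since no condition has more than 1 array.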

How the results depend on the processing

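No paired analysis was possible because each condition has 1 array, and for the same reason no replicate could be left out. All arrays share 1 slide, so the slide was not fitted as a block. No call changed direction. Scaling to the array median gave all genes a median of -0.27 (WT) and -0.30 (p53-/-). It moved the medians of the 34 genes to -2.10 and -1.79, and left 1 gene that rose in WT MEFs, Abcg1. The mean of a gene's probes moved the WT median to -1.40 (the cause was not tested). The genes with a log2 ratio at least 1 higher in WT than in p53-/- MEFs numbered 2. They numbered 1 with quantile normalization and 1 with normexp, where Scap, which reached 0.99, dropped out (the cause was not tested). They also numbered 1 where signals had to exceed the brightest negative control, because Abcg1 was below it on the untreated p53-/- array. Without doxorubicin, normexp left 0 genes higher in p53-/- MEFs, and the negative control limit left 1 gene lower.

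At 1.5-fold, 4 genes rose in WT MEFs, 12 had a ratio at least 1.5-fold lower in WT, 3 were higher and 4 lower in untreated p53-/- MEFs, and 16 were higher in treated p53-/- MEFs. At 3-fold these numbers were 1, 1, 0, 1 and 2, with 14 genes that fell in p53-/- MEFs and 1 with a higher ratio in WT. The other counts stayed within 1.5 times. Some values near 0 changed sign with the scaling. Among them were untreated genotype ratios (Hsd17b7, Stard4 and Npc1) and, with median scaling, the p53-/- doxorubicin ratios of Srebf1 (-0.27), Abca1 (-0.03) and Npc2 (-0.10). Averaging the probes of Srebf2 moved its difference (WT minus p53-/-) from -0.29 to 0.36. The log2 ratio of Srebf2 in treated p53-/- over treated WT MEFs then went from 0.34 to -0.28. Its WT log2 ratio with doxorubicin reached -0.79 over the other settings, short of 2-fold. The number of arrays limits all of these values.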
